A study of Mus musculus with 47 samples.

Results

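The 9 genes described here encode enzymes of heme synthesis and proteins that bring electrons to cytochrome P450: Alas1, Alad, Urod, Cpox and Fech on the one hand, and Por, Cyb5a, Cyb5r3 and Pgrmc1 on the other. They were chosen by name, as the gene probes that carry one of these 9 symbols in the scanner files, and their levels were followed across sex, Pxr genotype and antibiotics. The array holds 15 probes for them, of which 13, with at least 1 for each of the 9 genes, were among the 32974 probes tested for 21873 genes. The other two, 1 for Alad and 1 for Cyb5r3, were well above background on 6 and 19 of 47 arrays and were not tested.

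Liver mRNA of 47 mice was hybridized on 1-color arrays, 1 array per mouse. Pxr+/+ and Pxr-/- littermates born to Pxr+/- dams, on the C57BL/6J background and 6 months old, were compared in males and females. Of the 8 groups, 4 drank plain water (Cont). The other groups received antibiotics in it for 2 weeks (ATB), with vancomycin at 0.5 g/L and both ampicillin and neomycin at 1 g/L. All mice were sacrificed at ZT6, that is 6 hours after lights on. The groups held 6 mice each, except the Pxr-/- Cont males, with 5, where the methods state 6. By the methods a group was housed in 2 cages, an effect that could not be modelled because the sources used here do not tie mice to cages. Pxr-/- mice carry the deletion in the whole body, not in the liver alone.

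Heme is built from glycine and succinyl-CoA by a chain of enzymes that starts and ends in the mitochondrion. Alas1, 5-aminolevulinate synthase, is the rate-limiting first step in hepatocytes and is known as a target of the drug sensors PXR and CAR. Alad, Urod and Cpox make the intermediates and Fech, ferrochelatase, inserts the iron. In the endoplasmic reticulum, P450 enzymes use this heme and receive electrons from NADPH through Por, the P450 oxidoreductase, whereas Cyb5a, cytochrome b5, and its reductase Cyb5r3 deliver electrons by a second route. Pgrmc1 is a heme-binding membrane protein that associates with P450 enzymes.

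Every level below is the log2 of the normalized median signal of a probe, which cannot be set against the level of another probe, and where a gene had several tested probes the brightest was used unless another is named. A gene was called when, for at least 1 of its probes, limma gave a Benjamini-Hochberg adjusted p no higher than 0.05 together with a change of over 1.2-fold. The arrays had a 75th percentile signal between 306 and 492.5 and a median local background between 15 and 21. Nr1i2, which encodes PXR, was measured by a probe at chr16:38248804-38248863 (mm9) whose place relative to the deleted part is not given in the sources used here, so that it checks no label. Its log2 change with genotype was between -0.57 and -0.28 in the 4 comparisons and was not called in any of them. The median over all tested probes was not at 0 in the comparisons of males with females: it was -0.20 in Pxr+/+ Cont, -0.03 in Pxr+/+ ATB, -0.12 in Pxr-/- Cont and -0.18 in Pxr-/- ATB mice (log2, male minus female). In a bulk sample, fewer cells of a type and less RNA per cell cannot be told apart.

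Por and Alas1 carry most of what follows, and the DNA just before their RefSeq starts (GRCm38.p6) is shown for that reason, 5′ to 3′ on the strand of the gene, with capitals for GGGCGG, the GC box bound by Sp1, read on both strands. The Por stretch is chr5:135688895-135689144, plus strand, and the Alas1 stretch, before the upstream of 2 starts, is chr9:106247955-106248204, minus strand.
Por: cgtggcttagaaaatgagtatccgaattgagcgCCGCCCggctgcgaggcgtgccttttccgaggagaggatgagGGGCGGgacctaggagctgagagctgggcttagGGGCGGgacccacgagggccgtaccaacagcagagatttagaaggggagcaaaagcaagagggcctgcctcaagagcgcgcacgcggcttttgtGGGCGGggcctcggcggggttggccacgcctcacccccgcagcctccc
Alas1: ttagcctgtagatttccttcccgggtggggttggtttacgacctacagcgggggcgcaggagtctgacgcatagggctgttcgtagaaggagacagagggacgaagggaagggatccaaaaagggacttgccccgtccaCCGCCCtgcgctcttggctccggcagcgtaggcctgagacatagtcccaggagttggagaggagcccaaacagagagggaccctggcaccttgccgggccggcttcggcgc
Por held 4 GC boxes and this Alas1 window 1, a motif present in 32.7% of 32851 windows of 250 bases. Before the second Alas1 start, at chr9:106247906-106247935, the 8-base core GCATGCGC of the NRF-1 motif was found once on each strand, overlapping as a run of 10 bases, and the 30 bases around it are shown with that run in capitals.
Alas1 second start: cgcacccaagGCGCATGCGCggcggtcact
The core was in 2.26% of all windows and in none of the other 7 windows found for 6 member genes (RefSeq gave none for Cyb5r3, and 2 members were not looked up). CACGTG, the E-box of clock factors, was absent from the Por and Alas1 windows and present before Alad and Urod (6.02% of windows). AGAACA, a half-site of the glucocorticoid receptor, was found before Alad and Pgrmc1 (16.1%), and AGGTCA, the half-site of nuclear receptors, in none of the member windows (14%). The D-box TTATGTAA was in none either (0.819%). These are matches of letters and not sites.

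The Por probe lies at chr5:136211116-136211175, the brightest Alas1 probe at chr9:106136284-106136343, the tested Alad probe at chr4:62170231-62170290, and the Cpox probes at chr16:58680403-58680465 and chr16:58677246-58677305 (mm9, from the array files). Urod is on chromosome 4, Cyb5r3 on 15, Fech and Cyb5a on 18 and Pgrmc1 on X. Exon and UTR annotation of this build was not used here. All 13 tested probes were well above background and unsaturated on all 47 arrays.

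Por was lower in males than in females under all 4 conditions, by 2.05 to 2.56 times, and no other gene of the 9 was called in all of them. In Pxr+/+ Cont mice the Por level ran from 13.13 (median 13.83) to 14.46 in males and from 14.68 (median 14.95) to 15.67 in females. In Pxr+/+ ATB mice it ran from 13.46 (median 13.98) to 14.99 in males and from 14.73 (median 15.16) to 16.01 in females. The sexes overlapped in Pxr+/+ ATB mice and in no other condition. In Pxr-/- Cont mice the level was between 13.32 (median 14.21) and 14.66 in males and between 15.02 (median 15.61) and 15.73 in females. In Pxr-/- ATB mice it was between 13.70 (median 14.29) and 14.73 in males and between 14.83 (median 15.27) and 15.91 in females.

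**Figure D1:**
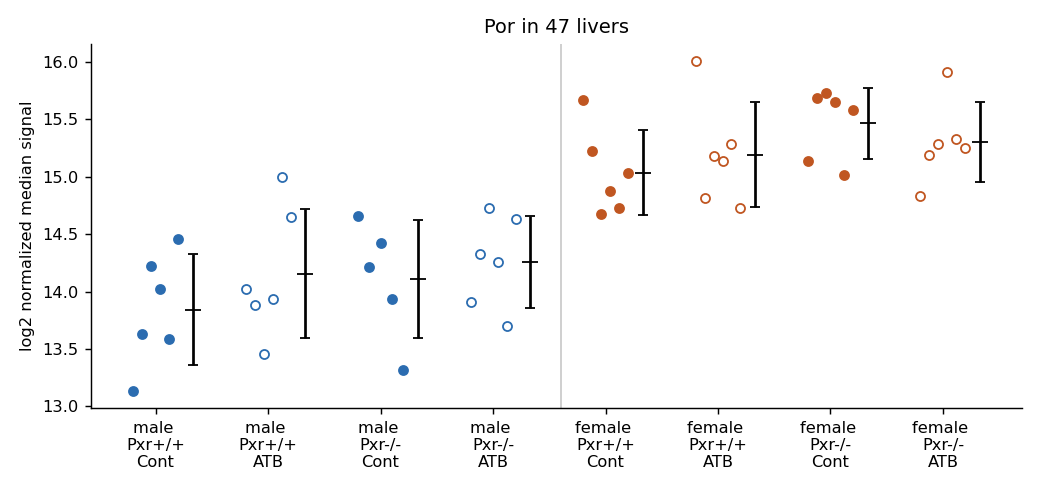
Por level (log2 normalized median signal) in 47 livers, 1 point per mouse, in the 8 groups; filled points are Cont and open points ATB, and bars give the mean ± SD. Males had group means between 13.84 and 14.26, and females between 15.03 and 15.47.

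The log2 difference in Por (male minus female) was -1.19 ± 0.24 (SE) in Pxr+/+ Cont mice, a 2.28-fold lower level (limma, adjusted p = 0.000276). It was -1.04 ± 0.24 in Pxr+/+ ATB mice (limma, adjusted p = 0.00272). Without PXR it was -1.36 ± 0.26 in Cont mice (limma, adjusted p = 0.000173) and -1.04 ± 0.24 in ATB mice (limma, adjusted p = 0.00161). Each slide carried 1 array of each group, apart from the first, which lacked the Pxr-/- Cont male, and on the log2 signals before normalization Por was lower in the male on every slide: 6 of 6 in 3 conditions and 5 of 5 in Pxr-/- Cont mice. The smallest of these differences was -0.07 and the largest -2.28. Within the wash batches, the difference lay between -1.66 and -0.08 in Pxr+/+ ATB mice, the value nearest 0 being from the third batch, with 1 mouse per group. Por remained called in all 4 conditions under each of the 11 other settings tried, with changes between -1.38 and -0.80, and without any 1 of the 47 mice.

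Sex differences were common in these livers, so the count of members is given beside the share of all genes called, and with 9 genes it rests on few. In Pxr+/+ Cont mice 2 of 9 members were called, Por and Alad, and 36.5% of all genes (34.1% lower in males). In Pxr+/+ ATB mice 2 of 9 were called, Por and Cyb5r3, and 14.3% of all genes (10.2% lower). In Pxr-/- Cont mice 2 of 9 were called, Por and Alad, and 18.7% of genes (15.8% lower). In Pxr-/- ATB mice 3 of 9 were called, Por, Alad and Cpox, and 30.2% of genes (27.4% lower). With quantile normalization of all arrays, which set the median of all probes between 0.01 and 0.02, the shares of all genes called were 18.2%, 17.1%, 14.7% and 15.2% in the same order, and the members called numbered 1, 2, 3 and 1. The median change of the 9 members was -0.03, -0.06, -0.07 and -0.20 in that order before quantile normalization, and 0.16, -0.03, 0.06 and -0.07 after it.

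**Figure D2:**
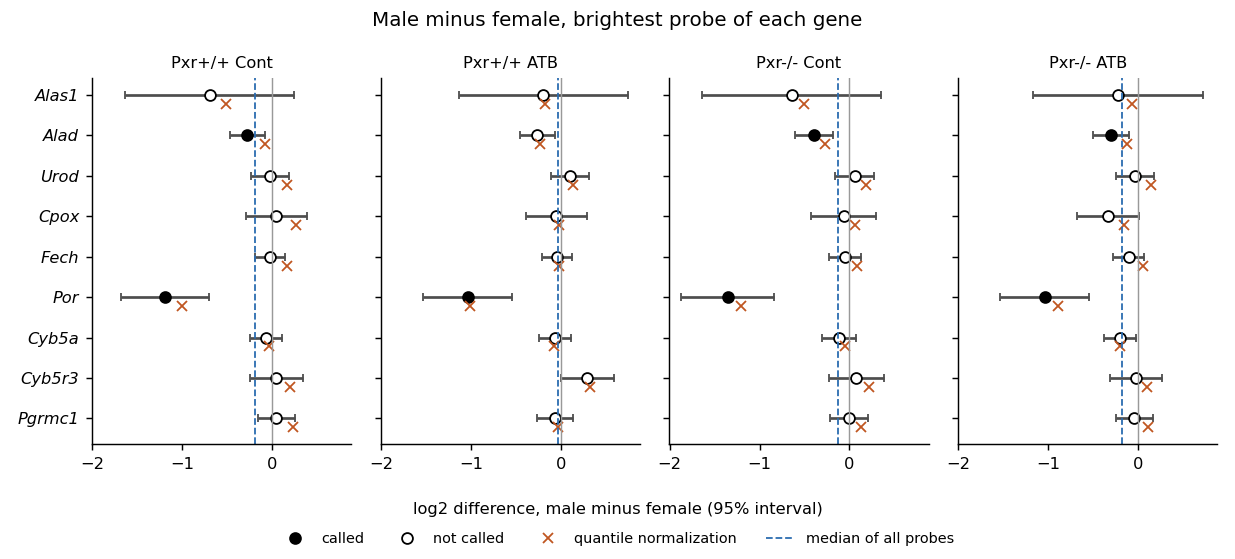
Log2 difference, male minus female, of the brightest probe of each of the 9 genes in the 4 conditions, with 95% intervals; filled points were called by that probe (Cpox and Cyb5r3 were called by a dimmer one), crosses give the value after quantile normalization and the dashed line the median of all tested probes. Por stands at -1.19, -1.04, -1.36 and -1.04, and no other brightest probe goes beyond -0.70.

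Among the enzymes of heme synthesis, Alad, which joins 2 molecules of 5-aminolevulinate, was the one called most often. In Pxr-/- Cont mice its level was between 13.01 (median 13.09) and 13.17 in males and between 13.20 (median 13.58) and 13.66 in females, without overlap, a log2 difference of -0.39 ± 0.10 (limma, adjusted p = 0.00666). Its change was -0.28 ± 0.10 in Pxr+/+ Cont mice (limma, adjusted p = 0.0267) and -0.30 ± 0.10 in Pxr-/- ATB mice (limma, adjusted p = 0.0188). In Pxr+/+ ATB mice it was -0.26 ± 0.10 and not called (limma, adjusted p = 0.0757). Less the median of all probes these values were -0.27 in Pxr-/- Cont, -0.23 in Pxr+/+ ATB, -0.13 in Pxr-/- ATB and -0.08 in Pxr+/+ Cont mice. After quantile normalization Alad was called in Pxr-/- Cont mice only, at -0.27, and that call was lost with the processed signal less its 75th percentile (-0.19) and with only the groups compared in the fit (-0.40). The call in Pxr+/+ Cont mice was also lost without any 1 of 7 mice (males 1, 3 and 6 and females 2, 4, 5 and 6), at -0.27 to -0.23, and that in Pxr-/- ATB mice without male 6 (-0.24) or female 6 (-0.25).

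Cpox, coproporphyrinogen oxidase, was called only through the dimmer of its 2 probes and only in Pxr-/- ATB mice. That probe read from 6.85 (median 7.42) to 7.84 in males and from 7.66 (median 8.11) to 8.69 in females, a log2 difference of -0.68 ± 0.18 (limma, adjusted p = 0.00394) that was -0.46 and not called after quantile normalization. The brighter probe gave -0.33 ± 0.17 in the same mice and was not called (limma, adjusted p = 0.131). Cpox lies on chromosome 16, 20.4 Mb from the Nr1i2 probe (mm9). Urod, which decarboxylates uroporphyrinogen, differed by between -0.03 and 0.10 with sex, and Fech by between -0.11 and -0.03. Neither was called, and their 95% intervals over the 4 conditions stayed within -0.27 and 0.31.

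Of the electron carriers other than Por, Cyb5r3 was called in males against females in Pxr+/+ ATB mice, through its dimmer tested probe. It read from 9.15 (median 9.30) to 9.40 in males and from 8.53 (median 8.84) to 9.06 in females, without overlap, a log2 difference of 0.48 ± 0.15 (limma, adjusted p = 0.0316). The call was lost without any 1 of 6 mice of those groups (males 3, 4 and 5, females 3, 5 and 6), at 0.42 to 0.48, and with scaling on spike-in probes, at 0.38. The brighter Cyb5r3 probe gave 0.30 ± 0.15 there (limma, adjusted p = 0.205). Cyb5a differed by between -0.20 and -0.06 and Pgrmc1, whose gene is on the X chromosome, by between -0.06 and 0.05, and neither was called.

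Loss of PXR was followed by no called change in any of the 9 genes by limma, in either sex and with or without ATB, where the shares of all genes called were 0.192% in Cont males, 1.24% in ATB males, 4.04% in Cont females and 0.229% in ATB females. None of the 52 tests of the 13 probes had an unadjusted p under 0.05. Of the 21873 genes, 1480, 6050, 5842 and 1518 had at least 1 probe with such a p, in the same order of groups. Alas1 was on average higher in Pxr-/- mice in all 4 comparisons, by 0.22 to 0.50, but the 95% intervals reached from -0.73 to 1.49, so that a difference of more than 2-fold lies within them. Por differed by 0.10 to 0.43, with intervals from -0.39 to 0.93. Fech was the most narrowly bounded, with differences from -0.01 to 0.06 and intervals from -0.19 to 0.23. The members' median change was between -0.01 and 0.09, and that of all probes between -0.13 and 0.01.

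**Figure D3:**
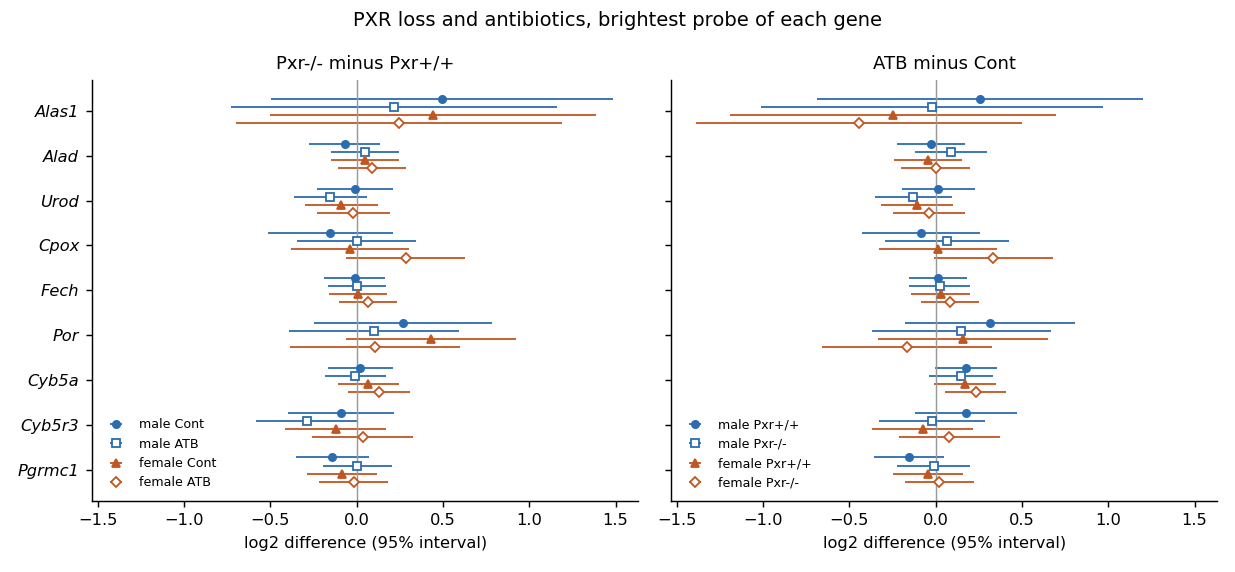
Log2 difference of the brightest probe of each of the 9 genes with 95% intervals, Pxr-/- minus Pxr+/+ in the left panel and ATB minus Cont in the right panel, for males (blue) and females (orange), with a marker for each of the 4 comparisons. No point was called; Alas1 has the widest intervals, with lower ends down to -0.73 on the left and -1.39 on the right.

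Antibiotics gave no call either by limma, with 1.31% of all genes called in Pxr+/+ males, 0.11% in Pxr-/- males, 0.0183% in Pxr+/+ females and 0.0411% in Pxr-/- females. An unadjusted p under 0.05 was reached by 2 of 52 probe tests, both in Pxr-/- females. One was the dimmer Cpox probe, at 0.50 (limma, adjusted p = 0.225). The other was Cyb5a, at 0.23 (limma, adjusted p = 0.277). Of the 21873 genes, 5009, 2008, 3025 and 3428 had at least 1 probe with an unadjusted p under 0.05, in the order of the shares above. Cyb5a was on average higher with ATB in all 4 comparisons, by 0.15 to 0.23. In Pxr+/+ males it read from 16.91 (median 17.10) to 17.20 in Cont and from 17.20 (median 17.27) to 17.31 in ATB mice, groups that met within 0.01 of each other, and the change of 0.17 was within 1.2-fold and not called (limma, adjusted p = 0.288). Pgrmc1, at -0.16 in Pxr+/+ males, was called there after quantile normalization, at -0.29 (limma, adjusted p = 0.0375). The median of the 9 members was between -0.04 and 0.02.

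Tests of the difference between effects, in which the response to ATB was compared between genotypes or sexes and the effect of PXR loss between sexes, called no member by limma. The shares of all genes called were 0.0183% and 0% for ATB by genotype in males and females, 0.0229% and 0.0549% for PXR loss by sex in Cont and ATB mice, and 0.0457% and 0.00457% for ATB by sex in Pxr+/+ and Pxr-/- mice. Of 78 tests of the 13 probes, 4 had an unadjusted p under 0.05, which were 3 of the dimmer Cyb5r3 probe and 1 of the dimmer Cpox probe. Such a p was reached by at least 1 probe of 1664, 3050, 1487, 2940, 3738 and 1589 of the 21873 genes, in the order of the shares above.

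When the 8 group means of each gene were put in order, none of the 63 pairs of neighbours differed after adjustment over the 63 (2-sided exact permutation tests). The smallest p that 6 mice against 6 allow is 0.00216, which by itself would give 0.136 after that adjustment. For Por the order was Pxr-/- Cont, Pxr-/- ATB, Pxr+/+ ATB and Pxr+/+ Cont in females (15.47 to 15.03), followed by Pxr-/- ATB, Pxr+/+ ATB, Pxr-/- Cont and Pxr+/+ Cont in males (14.26 to 13.84). The step from the lowest female to the highest male group, 0.77, was the largest (exact permutation p = 0.00649, adjusted 0.409), and within each sex no step exceeded 0.27. For Alad too the 4 female groups ranked above the 4 male groups.

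Alas1 varied widely between mice of the same group. In Pxr+/+ Cont mice its level ran from 13.19 (median 14.81) to 15.55 in males and from 14.23 (median 14.97) to 16.27 in females. In Pxr+/+ ATB mice it ran from 13.69 (median 14.80) to 16.13 in males and from 13.67 (median 14.78) to 16.58 in females. The sexes overlapped over most of the range. In Pxr-/- Cont mice the level was between 12.91 (median 15.32) and 15.92 in males and between 14.70 (median 15.62) and 16.46 in females. In Pxr-/- ATB mice it was between 14.58 (median 14.90) and 15.47 in males and between 14.31 (median 15.16) and 16.38 in females. The highest mouse was 8.05 times the lowest in Pxr-/- Cont males, a range that rests on male 6, since the other 4 males lay between 15.06 and 15.92. In Pxr+/+ ATB females it was 7.50 times the lowest, and in Pxr-/- ATB males 1.86 times.

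**Figure D4:**
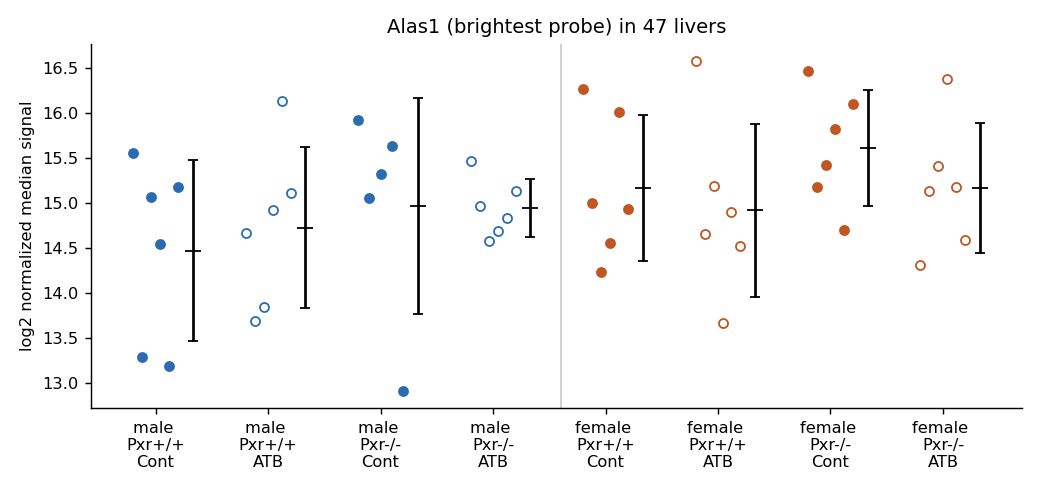
Alas1 level (log2 normalized median signal, brightest probe) in 47 livers, 1 point per mouse, drawn as for Por. The groups overlap throughout, with SDs between 0.32 and 1.19, and 1 Pxr-/- Cont male lies at 12.91.

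The 3 Alas1 probes, which lie between positions 106136284 and 106141105 of chromosome 9 (mm9), ranked the mice alike: the deviations of the dimmer probes from their group and wash batch correlated with those of the brightest at r = 0.98 and 0.99 (Spearman's rho 0.98 for both). The residual SD of Alas1, 0.87 on the log2 scale, was above that of 99.7% of the 21873 genes, whose median was 0.20. Por, at 0.45, was above 96.5% and Cpox, at 0.31, above 86.3%. At the other end, Fech varied little, at 0.14 (above 7.84% of genes), as did Cyb5a, at 0.15 (13.4%). With sex, the Alas1 difference was between -0.70 and -0.19 and was not called in any condition. Without the lowest mouse, Pxr-/- Cont male 6, the difference of Alas1 between the sexes in Pxr-/- Cont mice went from -0.64 to -0.07, and that between Pxr-/- and Pxr+/+ Cont males from 0.50 to 1.07 ± 0.47 (limma, adjusted p = 0.999), neither being called.

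Within groups, mice with more Alas1 tended to have more Por. Over the 47 arrays, the deviations of the 2 genes from their group and wash batch correlated at r = 0.59 (permutation p = 1e-05, the smallest that 100000 permutations can give, adjusted over 36 pairs 9e-05) and rho = 0.52. Without the 2 mice farthest from the median of Alas1, r was 0.48 (permutation, adjusted p = 0.00266), and after quantile normalization 0.55 (permutation, adjusted p = 0.00216). Within the 3 wash batches r was 0.44, 0.59 and 0.86, over 23, 16 and 8 arrays. In the groups of 6 mice it ran from -0.34 in Pxr-/- ATB males to 0.93 in Pxr-/- ATB females.

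**Figure D5:**
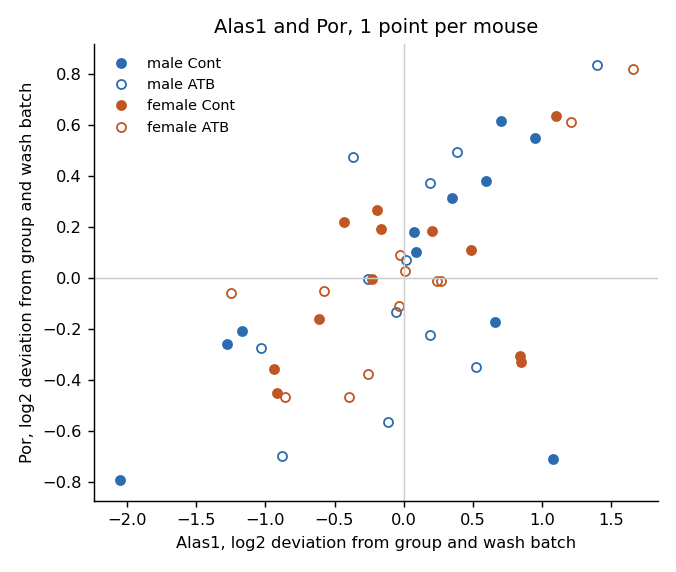
Deviation of Por (y axis) against that of Alas1 (x axis) from the group and wash batch, both log2, 1 point per mouse in males (blue) and females (orange), filled for Cont and open for ATB. The 47 points follow r = 0.59, and the mouse farthest left, at -2.06, is the Pxr-/- Cont male with the lowest Alas1 level.

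Of the 36 pairs among the 9 genes, 25 had an adjusted p of 0.05 or less (permutation), all with a positive r, but 5 did after quantile normalization. The share of pairs that would pass among all tested genes was not counted, so these counts cannot be set apart from it. Only 3 pairs passed in both with the same sign: Alas1 and Por, Urod and Pgrmc1 (r = 0.78, and 0.47 after quantile normalization), and Cpox and Pgrmc1 (0.59 and 0.41). Fech and Cyb5a, at 0.77, gave 0.38 after quantile normalization (permutation, adjusted p = 0.0517). Alad and Por, at -0.19, gave -0.49 (permutation, adjusted p = 0.00804), and Fech and Cyb5r3 turned from 0.31 to -0.40 (permutation, adjusted p = 0.0334).

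By the likeness of their deviations over the 47 arrays, a description with no test, the 5 genes most like Alas1 were Arid5b (r = 0.82), a chromatin regulator, Chac1 (0.81), which degrades glutathione and is known from the stress response of the endoplasmic reticulum, Gm42035 (0.76), Arhgef26 (0.74), and an unnamed transcript at chr9:106170918-106177894 (mm9, 0.74), whose start lies 29.8 kb from the nearest Alas1 probe. The 5 most like Por were Fkbp5 (0.83), a co-chaperone and well-known glucocorticoid target, Etnk2 (0.83), Map3k6 (0.83), St3gal5 (0.83) and Il6ra (0.83), which encodes the interleukin-6 receptor. Each r stayed above 0.71 after quantile normalization. The chromosome 9 transcript had a residual SD of 0.32 and Fkbp5 of 0.87.

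Alas1 and Por were also set against 11 regulators known for either gene, 22 pairs that were added after the values were seen. An adjusted p of 0.05 or less was reached by 18 of the 22 pairs (permutation), 14 with a positive r, and 17 of these passed with the same sign after quantile normalization. How many of all tested genes would pass with Alas1 or Por was not counted, so no share stands beside these counts. Arntl, the clock activator BMAL1, was low where Alas1 (r = -0.63) and Por (r = -0.71) were high (permutation, adjusted p = 3.14e-05 for both). Its partner Npas2 gave -0.40 with Alas1 and -0.47 with Por. Hnf4a, a hepatocyte factor, gave 0.70 and 0.65, and Foxo1, which insulin restrains, 0.60 and 0.71. Nr1d1, a clock repressor, correlated with Por at 0.55 (permutation, adjusted p = 0.00011) and with Alas1 at 0.10 (permutation, adjusted p = 0.568). Nr1i2, which encodes PXR, gave 0.43 with Alas1 (permutation, adjusted p = 0.00351) and 0.61 with Por (permutation, adjusted p = 3.14e-05), and 0.36 and 0.57 after quantile normalization. Its probe was measured in Pxr-/- mice too. Nr1i3, which encodes CAR, gave 0.00 with Alas1 and 0.31 with Por (permutation, adjusted p = 0.0426), which was 0.18 after quantile normalization. The mice were sacrificed at 1 stated time, and the order in which they were taken is not given in the sources used here.

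The rest of heme synthesis and its mitochondrial handling was looked at as a list of 13 genes. In Pxr+/+ Cont mice 2 were higher and 1 lower in males, in Pxr+/+ ATB mice 5 higher, in Pxr-/- Cont mice 2 higher, and in Pxr-/- ATB mice 2 higher and 3 lower, against the shares of all genes given above. After quantile normalization the counts higher in males were 4, 6, 4 and 3 and none was lower. Of all 21873 genes, 1976, 1753, 1683 and 1740 were then higher in males. In this and the later lists, the direction counted after quantile normalization is that of the brightest probe of a called gene. Before quantile normalization the median change of the 13 was 0.00, 0.12, 0.04 and -0.04 in that order, whereas that of all probes was negative. After it, the median of the 13 was 0.22, 0.16, 0.20 and 0.14. Alas2, the erythroid form of 5-aminolevulinate synthase, was higher in males throughout. In Pxr+/+ Cont mice it ran from 12.52 (median 12.67) to 12.71 in males and from 10.07 (median 10.20) to 10.40 in females, a log2 difference of 2.44 ± 0.11 (limma, adjusted p = 2.09e-21). The differences in the other conditions were 2.51, 2.46 and 2.56, and no male fell below 12.28 nor any female rose above 10.58. Of 8 erythroid markers tested, which hold 4 globin genes, Klf1 was lower in Pxr+/+ Cont males, Car1 was higher in Pxr-/- males, Cont and ATB, and Klf1, Hbb-b1 and Hbb-bt were lower in Pxr-/- ATB males. These 4 genes were picked out after their values were seen. After quantile normalization none of the lower calls was kept, and Car1 was called higher in males under all 4 conditions. No globin gene was called higher in males with either scaling. In Pxr+/+ Cont mice the mean level of the erythroid markers was between 10.20 and 10.56 in males and between 10.39 and 10.57 in females. In Pxr-/- ATB mice it was between 10.11 and 10.49 in males and between 10.29 and 10.64 in females. Abcb10, a mitochondrial transporter of erythroid heme synthesis, was higher in males too, by 0.49, 0.83, 0.69 and 0.48. None of these 13 genes was called with PXR loss or ATB.

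Of 10 genes for the breakdown, binding and transport of heme, Abcg2, which exports porphyrins, was higher in males by 0.94 to 1.19 under all 4 conditions, and the others called (Blvra, Flvcr1, Hmox2, Hp, Hpx and Slc48a1) were called in 1 or 2 of them, with none of these 6 called there after quantile normalization. Of 12 genes for iron uptake and storage, Hamp, the iron hormone hepcidin, was lower in males by 0.97 in Pxr+/+ Cont, by 1.06 in Pxr+/+ ATB and by 0.98 in Pxr-/- Cont mice, and Slc40a1, the iron exporter, was lower under all 4 conditions, but called in Pxr+/+ mice only after quantile normalization. From Pxr+/+ Cont and ATB to Pxr-/- Cont and ATB mice, 4, 2, 2 and 3 of the 12 were lower in males and 0, 3, 1 and 1 higher. After quantile normalization 2, 2, 1 and 0 were lower and 2, 4, 2 and 2 higher. Slc11a2 was higher by 0.50 in Pxr+/+ ATB, 0.52 in Pxr-/- Cont and 0.54 in Pxr-/- ATB mice, with either scaling called. In Pxr+/+ Cont mice a dimmer Slc11a2 probe was lower, a call then lost. Of 12 tested genes for other electron carriers and suppliers of NADPH, 3 were called in Pxr+/+ Cont mice: H6pd was higher in males, and Cyb5r4 and Mtrr were lower. In Pxr+/+ ATB mice Cyb5b was higher, by a dimmer probe, and in Pxr-/- Cont mice 0 were called. In Pxr-/- ATB mice H6pd was higher and Cyb5r4 lower. After quantile normalization 3, 3, 3 and 2 were higher in the same order and 0 lower, and these calls of Cyb5r4 and Mtrr were lost. No gene of these 3 lists was called with PXR loss or ATB before quantile normalization. After it, 1 of the 12 iron genes was called with PXR loss in Cont females, higher. With ATB in Pxr+/+ males, 1 of the 10 genes for breakdown, binding and transport of heme was then called, lower.

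Genes for proteins that take up these electrons were called with both PXR loss and ATB. With PXR loss, of 16 such genes 3 were called in Cont males, 4 in ATB males, 2 in Cont females and 2 in ATB females, where 0.192%, 1.24%, 4.04% and 0.229% of all genes were, and 10 of these 11 calls were higher. Cyp2c55 was among them in all 4, higher by 2.36, 3.37, 2.43 and 3.03. With ATB, 7 of 16 were called in Pxr+/+ males, 3 higher and 4 lower, where 1.31% of all genes were, and 5 after quantile normalization, 1 higher and 4 lower. Cyp3a11, the drug-metabolizing P450 that is a classic PXR target, was lower by 2.04 ± 0.17 (limma, adjusted p = 1.15e-10), where the difference was 0.32 ± 0.24 for Por and 0.26 ± 0.47 for Alas1, neither called. Msmo1 and Sqle, enzymes of sterol synthesis that need such electrons, were higher by 1.13 and 1.04. After quantile normalization Sqle was not called, and Msmo1 was called only by a dimmer probe. The brightest Msmo1 probe gave 0.99 there (limma, adjusted p = 0.0666). In Pxr-/- males 1 of 16 was called with ATB, Cyp2b10, and in females of both genotypes 0 were. From Pxr+/+ Cont and ATB to Pxr-/- Cont and ATB mice, 6, 5, 4 and 5 of the 16 were lower in males, and 0, 3, 0 and 0 higher. The shares of all genes lower in males were 34.1%, 10.2%, 15.8% and 27.4%. After quantile normalization 4, 5, 4 and 5 of the 16 were lower and 1, 3, 1 and 0 higher. Cyp2b10, Cyp2c29, Cyp3a11 and Cyp4a14 were lower in males under all 4 conditions, Cyp4a14 not being called in Pxr+/+ Cont mice after quantile normalization. Cyp3a11 differed by -1.11, -3.17, -0.98 and -1.28 in the order used above, and Cyp2b10 by between -7.44 and -4.51. Of the 11 regulators, Nr1i3 was the one lower in males under all 4 conditions, by 0.53 to 1.04.

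Markers of other cell types also differed between the sexes, and are given in the order Pxr+/+ Cont, Pxr+/+ ATB, Pxr-/- Cont and Pxr-/- ATB, in which 34.1%, 10.2%, 15.8% and 27.4% of all genes were lower in males. After quantile normalization 2015, 1996, 1549 and 1601 of the 21873 genes were lower in males, and 1976, 1753, 1683 and 1740 were higher. Of 12 macrophage and Kupffer cell markers, 10, 6, 5 and 0 were lower in males, and 9, 7, 3 and 0 after quantile normalization. Of the same 12, 0, 1, 1 and 1 were higher, and 1 more was called in both directions by its probes in Pxr+/+ Cont mice. After quantile normalization 0, 0, 0 and 1 were higher. The mean levels of the 12 were between 10.09 and 10.54 in Pxr+/+ Cont males and between 11.06 and 11.99 in the females. In Pxr-/- ATB mice the ranges were 9.25 to 11.79 in males and 9.83 to 10.86 in females. Of 7 T and NK cell markers, 6 were lower in males under each condition. After quantile normalization 6 were called under each, and by their brightest probes 6, 6, 6 and 5 of these were lower. Of 8 markers of pericentral hepatocytes, where P450 activity is known to be highest, 5, 2, 4 and 3 were lower in males, and 3, 2, 3 and 2 after quantile normalization. Of 8 periportal markers 2, 0, 1 and 2 were lower, and 0, 0, 0 and 2 after quantile normalization, and 1, 2, 1 and 1 were higher with either scaling. Of 8 sinusoidal endothelial markers 5, 1, 3 and 2 were lower, and 4, 3, 0 and 0 after quantile normalization. Of 6 tested cholangiocyte markers 0, 1, 0 and 1 were lower. After quantile normalization 0 of the cholangiocyte markers were lower, and 1, 0, 0 and 1 were higher. The hepatocyte markers, 7 tested, had mean levels between 16.73 and 17.11 over all 47 mice, and 1, 0, 1 and 2 of them were lower in males. The part of these cell types in the sex difference of Por was not tested.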

How the data were processed

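Hepatic mRNA of 47 mice was measured on Agilent 1-color arrays. The scanner files deposited by the authors, from Agilent Feature Extraction 10.10.1.1, give spot intensity on a linear scale without background subtraction, and a second deposited table gives log2 signal of 33383 probes after the authors' own filter, wash correction and CrossNorm, which served as an alternative. Groups and wash batches came from the sample labels.

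From the median intensity, log2 was taken, 422 non-uniform spot values were left out, and a probe was kept if 5 or more arrays of some group had it well above background. Wash batch was removed and CrossNorm was run with 300 random stackings (100 where the filter or the wash batch was varied). limma 3.58.1 (R 4.3.3) was fitted with 8 groups and wash batch, with the threshold for calls stated above (0.05 and 1.2-fold). Gene names and mm9 coordinates are those of the array files, with 1535 probes renamed through RefSeq. The code was tested on simulated data. Correlations used deviations from group and wash batch, with 100000 permutations. Precision is set by the number of arrays. Cages are unknown, so the tests treat mice as independent, and p-values may be too small if mice of a cage are alike.

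The 9 genes, the lists and the tests were chosen with earlier results of these data known. The named genes are the members, members of the lists, and the 5 genes most like Alas1 and Por. Alternatives were other scalings, filters, blocks and subsets of arrays, described at the end.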

Additional observations from a re-analysis of the deposited data

Results flagged for a closer look

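In groups of 5 or 6 mice, the gap of the outermost mouse to its neighbour was divided by the range of the group and set against Dixon's limit, for 104 groups of the 13 tested probes. It was passed in 4 of the 104, which is no more than the rate of about 1 in 20 that chance gives. Of these, 2 concern the same mouse, Pxr-/- Cont male 6. Its Alas1 level was 12.91 where the next mouse had 15.06 (gap 0.712 of the range, limit 0.71), and its Cyb5a level was 16.82 against 17.12 (0.721). The dimmer Alas1 probes did not pass the limit in this mouse. Cyb5r3 read 16.29 in Pxr-/- ATB female 6, the highest of its group, against 16.04 (0.703), and the dimmer Cyb5r3 probe read 8.40 in Pxr+/+ Cont female 4 against 9.04 (0.760).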

How the results depend on the processing

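The 4 sex differences of Por kept their direction and their call under every alternative run. Counts of called members with PXR loss and in the tests of differences between effects stayed at 0 under all of them. With ATB, the count in Pxr+/+ males was 1 after quantile normalization and after normexp with quantile normalization (Pgrmc1 in both), and that in Pxr-/- females was 1 with the authors' processed values (Cyb5a, 0.27). Between the sexes, the count in Pxr+/+ Cont mice (2) became 1 with quantile normalization, with normexp and with the authors' values, that in Pxr+/+ ATB mice (2) became 1 from the brightest probe alone, that in Pxr-/- Cont mice (2) became 1 with only the groups compared in the fit, and that in Pxr-/- ATB mice (3) became 1 with quantile normalization, with normexp and with the processed signal less its 75th percentile. Leaving out each mouse gave counts from 1 to 2 in both Pxr+/+ conditions, from 2 to 3 in both Pxr-/- conditions, and 0 elsewhere. The Alad difference in Pxr+/+ Cont mice turned from -0.28 to 0.0185 with the processed signal less its 75th percentile. Of the 36 correlated pairs, 25 passed at first, 5 after quantile normalization and 18 without the 2 farthest arrays. The cause of these changes was not tested. With a replicate block beside the wash batch the sex counts stayed at 2, 2, 2 and 3. Mice of 1 replicate number shared only that number: their deviations correlated at -0.03 on average over 161 pairs, and 8 of 47 arrays correlated best with their own number. The width of the intervals of Alas1 limits what can be said of it.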
